A study of Homo sapiens with 38 samples.

Results

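RING1B binding was compared in NCI-H661 cells that carried inducible hairpins against both DPPA2 and DPPA4, with the hairpins switched on by doxycycline (DOX) or left off (control). The comparison was chosen by its labels, as the RING1B libraries of the DOX arm and the control arm of the shDPPA2+4 line, and it took 2 of the 38 libraries of the series, of which 30 had lists of enriched regions. NCI-H661 is a large cell lung carcinoma line that expresses DPPA2 and DPPA4. By the authors' account it has been reclassified as SMARCA4-deficient non-small cell lung cancer. The shDPPA2+4 line was a bulk population sorted for both hairpin vectors, grown for 7 days with 2 µg/mL doxycycline in the DOX arm and with water in the control arm. The control arm therefore carries the same 2 hairpin vectors, and no library of a non-targeting hairpin was used here, so that an effect of doxycycline itself cannot be told apart from that of the hairpins. Binding was mapped by CUT&RUN, in which an antibody recruits a nuclease that cuts out the bound chromatin. Each arm had 1 library, so that differences between the arms could not be checked against replicates and no test was run. Intervals cover counting error over domains or reads only, and neighbouring domains are not independent.

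RING1B (gene RNF2) is a catalytic subunit of Polycomb repressive complex 1 (PRC1), the complex that places ubiquitin on histone H2A. Canonical PRC1 carries a CBX subunit that reads the H3K27 methylation made by PRC2. The PCGF1 form of variant PRC1 reaches unmethylated CpG islands through KDM2B. In many cell types RING1B forms broad domains over silent developmental genes and narrower ones at CpG-rich promoters, including those of active genes. DPPA2 and DPPA4 are SAP domain proteins of the early embryo that bind CpG-rich chromatin.

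Windows from the leading gained, lost and kept domains are given to show the sequence at which binding was called. They are the first 3 gained, the first 3 lost and the first 2 kept domains by reads above the scaled IgG reads. Each window holds 151 bases around the highest MACS2 summit of the domain, read from hg38 in the 5′ to 3′ direction of the plus strand, with CG dinucleotides in capitals. The gained windows lie within PRKAR2B (chr7:107058155-107058305), near GNAL (chr18:11677420-11677570) and near FERD3L (chr7:19176079-19176229), with 0, 2 and 2 CG dinucleotides. The lost windows lie at the promoters of ZNF131 (chr5:43121252-43121402) and BRMS1L (chr14:35826210-35826360) and near NR2F1 (chr5:93595342-93595492), with 5, 12 and 4. The kept windows lie in the broad domains over SFTA3 (chr14:36495780-36495930) and SP9 (chr2:174341477-174341627), with 1 each. The ranges overlap, since the 8 leading gained domains had 0 to 6 CG dinucleotides in their windows, 7 leading lost domains 0 to 17 and 6 leading kept domains 0 to 12.
within PRKAR2B, gained: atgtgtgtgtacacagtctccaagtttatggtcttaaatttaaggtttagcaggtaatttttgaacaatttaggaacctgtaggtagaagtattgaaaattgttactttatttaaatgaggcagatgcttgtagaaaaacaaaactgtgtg
near GNAL, gained: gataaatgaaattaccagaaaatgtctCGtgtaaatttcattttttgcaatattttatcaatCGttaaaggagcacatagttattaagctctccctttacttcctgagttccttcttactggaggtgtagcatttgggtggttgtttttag
near FERD3L, gained: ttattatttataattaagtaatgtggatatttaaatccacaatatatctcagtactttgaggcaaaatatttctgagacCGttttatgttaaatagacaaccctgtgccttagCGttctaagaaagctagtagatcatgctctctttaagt
ZNF131, lost: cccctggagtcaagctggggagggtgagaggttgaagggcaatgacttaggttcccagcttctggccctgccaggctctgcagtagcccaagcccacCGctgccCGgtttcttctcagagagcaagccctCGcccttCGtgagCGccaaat
BRMS1L, lost: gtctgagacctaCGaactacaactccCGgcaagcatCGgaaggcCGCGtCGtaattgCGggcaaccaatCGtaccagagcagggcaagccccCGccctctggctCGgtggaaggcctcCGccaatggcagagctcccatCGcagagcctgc
near NR2F1, lost: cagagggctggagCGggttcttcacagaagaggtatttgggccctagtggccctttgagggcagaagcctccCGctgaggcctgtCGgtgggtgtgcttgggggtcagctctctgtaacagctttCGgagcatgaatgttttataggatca
SFTA3, kept: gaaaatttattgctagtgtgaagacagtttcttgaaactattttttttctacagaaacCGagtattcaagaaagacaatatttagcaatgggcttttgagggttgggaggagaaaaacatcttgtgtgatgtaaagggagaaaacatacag
SP9, kept: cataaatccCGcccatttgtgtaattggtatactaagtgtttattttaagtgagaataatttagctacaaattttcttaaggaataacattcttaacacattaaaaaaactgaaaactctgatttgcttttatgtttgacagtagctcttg

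With DOX there were fewer RING1B domains, longer by EPIC2 but not by MACS2, and they held fewer reads per kb once the library size was taken into account. Domains were EPIC2 regions with a false discovery rate below 0.05 and a log2 fold change over IgG above 1, on the autosomes and chromosome X. The DOX library had 27192 domains and the control library 31502, a log2 ratio of −0.21, which is −0.021 among domains with at least 20 reads. The DOX domains covered 22.7 Mb with a median length of 600 bp, and the control domains covered 21.8 Mb with a median of 500 bp. Domains over 2 kb numbered 1240 with DOX and 1021 in the control, and those over 5 kb numbered 138 and 99. The DOX domains held 854501 reads and the control domains 864120, although the DOX library was 1.62 times as large as the control library. This size ratio was solved from the IgG counts, which were equal in all 902 domains with identical ends in both arms, so that both lists were scored against the same IgG reads. The series has IgG libraries for the control arm of this line and none for its DOX arm. Background particular to the DOX arm was therefore not measured. Per library read, the mean density in domains was 23.3 reads per kb with DOX (scaled to the control library) and 39.7 reads per kb in the control, and the medians over domains were 17.5 and 30.0. Before scaling, these medians were 28.3 and 30.0, so that the scaled difference comes mostly from the size ratio. In the shDPPA4 line the unscaled medians were 29.0 with DOX and 30.0 in the control. The part of the calling limit in these densities was not tested. DPPA4, profiled in the same arms, had 38898 domains with DOX and 44555 in the control, and its reads in domains per library read were 0.463 of those in the control.

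A control domain was called lost where no DOX domain shared 25% of the shorter of the pair, and a DOX domain was called gained by the converse rule. By these definitions 10318 of 27192 DOX domains were gained (37.9%, 95% Wilson interval 37.4 to 38.5%) and 13534 of 31502 control domains were lost (43.0%, 42.4 to 43.5%). Both kinds were small. The median gained domain had 500 bp and 11 reads, against 800 bp and 26 reads in kept DOX domains, and the median lost domain had 400 bp and 9 reads, against 700 bp and 22 reads in kept control domains. Gained domains held 15.4% of all DOX domain reads and lost domains 21.9% of all control domain reads. Of 138 DOX domains over 5 kb none was gained, which allows a share of up to 2.71% (upper Wilson limit), and of 99 such control domains none was lost, which allows up to 3.74%. The rule favours long domains, since a single short domain of the other arm within a long one counts it as kept. The small size of gained and lost domains therefore follows in part from the rule. Among the 24205 control domains that touched a shDPPA4 control domain, 31.8% (31.2 to 32.4%) were lost. By the 25% rule, 24066 of the 31502 control domains (76.4%) matched a domain of the shDPPA4 control, a library without induction. In the DOX arm 17968 (57.0%) had a match. These 2 shares are not like for like, since a larger list offers more matches. The shDPPA4 control had 42613 domains over 34.4 Mb, and the DOX arm 27192 over 22.7 Mb. Of gained domains 37.4% touched a shDPPA4 control domain, against 93.1% of kept DOX domains.

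Gains lay away from promoters, and losses were spread more widely. Of DOX domains at promoters of protein-coding genes (within 1500 bp of the start site), 10.3% (9.72 to 10.9%) were gained, against 55.9% within gene bodies and 54.0% between genes. Of control domains at promoters 30.0% (29.2 to 30.7%) were lost, against 52.2% within gene bodies and 53.5% between genes. Distal domains that touched the promoter of a long noncoding RNA were intermediate, with 23.3% of DOX domains gained and 35.3% of control domains lost. Of the gained domains 39.5% lay in gene bodies and 50.2% between genes, and of the lost domains 28.8% and 40.9%. The promoter minus distal difference in percent lost was −23.0 points and kept its sign in each of 5 classes of control domain length that hold equal shares of the domains, at −15.1, −18.0, −18.0, −11.9 and −5.43 points from the shortest to the longest class.

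Gained domains were poor in CpG, with a median GC content of 38% and a CpG observed to expected ratio of 0.235, against 57.8% and 0.699 in kept DOX domains. Lost domains were intermediate, at 46.3% and 0.376, against 57.7% and 0.693 in kept control domains. Over 10 equal classes of the CpG ratio, the share of DOX domains gained was 78.4% in the lowest class and 7.98% in the highest. The share of control domains lost was 69.5% in the lowest class and 31.0% in the highest, with its minimum of 26.2% in class 8. Gained domains also had fewer IgG reads, 2.09 per kb against 4.87 in kept DOX domains, whereas lost and kept control domains had 5.62 and 5.23. The part of base composition and IgG level in these differences was not tested.

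The domains with DPPA2 and DPPA4 peaks in parental H661 cells were rarely gained and less often lost than those with neither. With both peaks, 5.67% (5.17 to 6.22%) of 7385 DOX domains were gained and 28.8% (27.9 to 29.7%) of 9962 control domains were lost. With neither, 57.3% (56.5 to 58.0%) of 16457 DOX domains were gained and 52.6% (51.8 to 53.3%) of 16669 control domains were lost. The loss differed in the same direction in the 4 shorter classes of control domain length, for example 56.3% against 68.7% in the shortest, and in the opposite direction in the longest class (900 bp and over), where 610 of 3866 control domains with both peaks (15.8%) and 159 of 1539 with neither (10.3%) were lost. Gains were less frequent with both peaks in every length class, for example 0.231% against 19.3% in the longest.

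**Figure D1:**
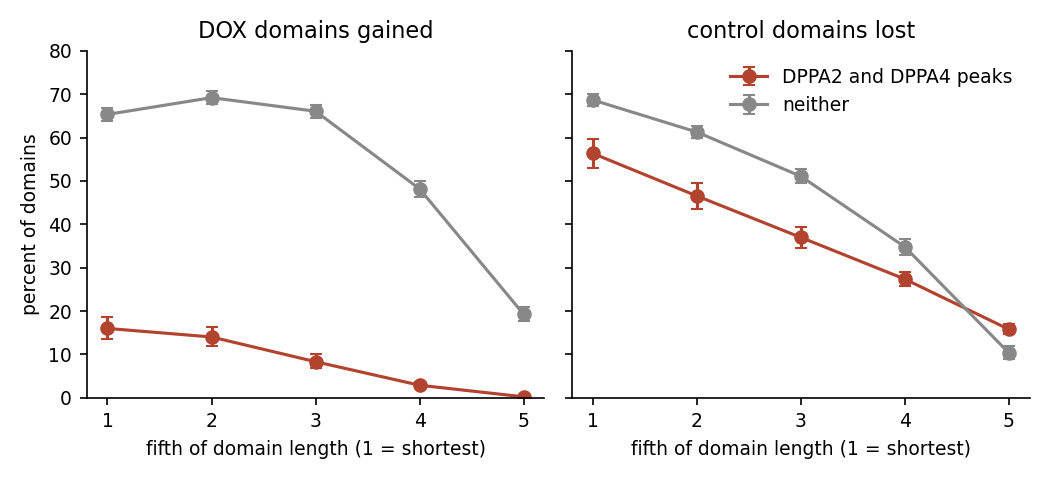
Percent of DOX domains gained (left) and of control domains lost (right) by 5 equal classes of domain length within each arm, for domains with DPPA2 and DPPA4 peaks in parental cells (red) and with neither (grey). Whiskers are 95% Wilson intervals; the order of the loss curves turns in the longest class, at 15.8% and 10.3%.

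Partner proteins, profiled in the control arm of the same line, lay at larger shares of kept than of changed domains. MTF2, an accessory subunit of PRC2, lay at 42.8% of gained domains, 78.6% of kept DOX domains, 43.2% of lost domains and 77.8% of kept control domains. PCGF1, the subunit that defines one form of variant PRC1, lay at 1.82%, 29.4%, 7.82% and 28.0% of the same classes. The acetyltransferase EP300, which marks active promoters and enhancers, lay at 11.1% of gained, 61.8% of kept DOX, 36.8% of lost and 59.2% of kept control domains. Of the control domains with PCGF1 17.4% were lost, against 49.1% without it. Where both DPPA proteins were present, 20.1% of control domains with MTF2 and 54.6% of those without it were lost, and where neither was present 38.5% and 70.1%. A partner counted where it shared at least 1 base, kept domains were longer, and these shares were not matched for length. The part of these proteins in the losses was not tested.

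A weaker DOX domain remained over part of the lost domains, most often at DPPA2/4 sites. Without the fold limit, a DOX domain was still called over 2143 of the 13534 lost domains (15.8%). This applied to 39.7% of lost domains with both DPPA peaks and to 6.78% of those with neither, and to 28.1% of lost promoter domains and 10.5% of lost distal domains. A control domain under the limit was present at 1.03% of gained domains. The 8 lost domains with the most control reads over IgG were all of this kind. At the promoter of ZNF131, a zinc finger gene (chromosome 5, 43120701 to 43122400), the DOX domain under the limit held 132 reads and the control domain 207, with 36 IgG reads in the control domain. Per library read this was a ratio of 0.395. At BRMS1L, a SIN3-HDAC complex gene, it held 281 reads against 244, a ratio of 0.712, the highest of the 8. The promoters shared by PPAT and PAICS, which encode purine synthesis enzymes, had 154 against 182 reads, and that of the transcription factor SP1 194 against 193. TTI2, a cochaperone gene, had 163 against 184 reads at its promoter, and the others lay 13228 bp from NR2F1 and 63831 bp from IZUMO2, with 175 against 210 and 205 against 208 reads. At these 7 regions both DPPA proteins had peaks. Their IgG density in the control list, 12.4 to 45.3 reads per kb, lay above the 5.62 of all lost domains.

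The remaining 11391 lost domains had no DOX domain at any fold. Their median was 8 reads and 400 bp, and the most reads in any was 180. That domain covered the divergent promoter of the histone genes H2BC11 and H2AC11 (chromosome 6, 27131301 to 27134900), with 48 IgG reads. The next 5 by reads over IgG, listed after their values were seen, lay over the noncoding RNA genes MALAT1 and TALAM1 (122 control reads, 44 IgG reads), the histone gene H4C5 (93 and 23), a site 6231 bp from FLYWCH1 (111 and 41), MAP3K11 and PCNX3 (86 and 22), and a site 881833 bp from SLC10A2 on chromosome 13 (87 and 23). All 6 had EP300 and none had MTF2 in the control arm. All 6 were also called in the shDPPA4 control arm, and 5 of them in the shDPPA4 DOX arm, the exception being the site near FLYWCH1.

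The leading gained domains were weaker, lay mostly away from promoters and had neither DPPA protein. The first, within PRKAR2B, which encodes a regulatory subunit of protein kinase A (chromosome 7, 107058101 to 107059900), had 57 DOX reads over 3 IgG reads. A site 12214 bp from GNAL had 55 reads, one 30679 bp from FERD3L had 47, one 122999 bp from MAP3K1 had 47 and one 193758 bp from MTX2 had 48. Sites within ODAD2 and RASGRF2 had 48 and 43 reads. RFX6, a transcription factor gene of endoderm and pancreas, was the promoter among the 8, with 43 DOX reads over 1 IgG read. None had a control domain at any fold, EP300 or PCGF1, while 6 of the 8 had MTF2, the exceptions being PRKAR2B and the site near FERD3L. All 8 touched domains in both arms of the shDPPA4 line. The DOX library was the larger one, and the part of depth in these gains was not tested.

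At the 16001 loci where domains of both arms matched, reads were summed over the domains of each arm. The median log2 change per library read was −0.56 (95% interval of the median −0.57 to −0.54), with 25% of loci at or below −0.92 and 25% at or above −0.14. Scaled to the reads in domains instead, every change moves up by 0.71 and the median becomes 0.15, so that the direction at a typical locus depends on the scaling and changes are given below also relative to this median. That scaling sets the domain reads of the arms equal, so that it cannot show a change common to all domains. The paper's protocol added bacterial spike-in DNA, and no spike-in reads were used here. Of all loci, 3207 (20%) were at least 2-fold lower and 3142 (19.6%) were higher with DOX per library read. Of loci over 5 kb, 3.08% were at least 2-fold lower and 5.13% higher.

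The change was lower at loci with both DPPA proteins. Their median was −0.75 (−0.76 to −0.74, 6906 loci), 0.19 below that of all loci, and that of loci with neither was −0.25 (−0.28 to −0.23, 6395 loci), 0.31 above it. Loci with 1 of the 2 proteins had a median of −0.59. Against the 20% of all loci, 27.2% of loci with both proteins and 11.5% of those with neither were at least 2-fold lower. Against the 19.6% of all loci, 7.25% and 35.6% were higher. The difference of the medians was −0.50, a value that no scaling of the libraries changes. It was negative in each of 10 equal classes of mean read density, between −1.0 in the sparsest and −0.17 in the densest, where the medians were −0.72 and −0.55. In the 3743 loci with 1 domain per arm that shared 80% of each, the medians were −0.74 (1988 loci with both) and −0.51 (1054 with neither), a difference of −0.22.

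The same order held at promoters and away from them. With both DPPA proteins the median was −0.74 at promoters and −0.77 at distal loci, and with neither it was −0.43 and −0.15. Within the loci without DPPA peaks, those with EP300 had a median of −0.47 and those without it −0.11, and those with and without MTF2 had medians of −0.28 and −0.19. Within the loci with both DPPA peaks, EP300 and MTF2 classes lay between −0.75 and −0.69. Loci with a PCGF1 domain had a median of −0.74 and those without one −0.44. Among these classes the widest contrast was by DPPA4 domains in the same line, at −0.67 for 12223 loci with a control arm domain and −0.06 for 3778 loci without one. Among the loci with such a domain, those that still had a DPPA4 domain with DOX (11259) had a median of −0.69 and those where it was no longer called (964) one of −0.49. The change also varied with read density, with a median over all loci of 0.22 in the sparsest of the 10 classes and −0.69 in the densest. The contrasts by place, EP300, MTF2, PCGF1 and DPPA4 domains were not matched for density or domain length. The part of these proteins in the changes was not tested.

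Matched domains were not all of equal extent. Of 13750 loci with 1 domain in each arm, the DOX domain was longer at 6910 (50.3%), equal at 1747 and shorter at 5093 (37.0%), with a median log2 length change of 0.06, which turns to −0.99 for matched MACS2 peaks (median length of all peaks 404 bp with DOX and 488 bp in the control). At loci with both DPPA proteins the DOX domain was longer in 41.3% and shorter in 46.2%, with a median of 0.00. At loci with neither it was longer in 61.1% and shorter in 26.9%, with a median of 0.32. Several control domains were joined in 1 DOX domain at 1457 loci, and 1 control domain was split into several DOX domains at 608.

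The broadest domains were retained. The longest control domain, 23500 bp over NKX2-1, a lung and forebrain transcription factor gene, and its neighbour SFTA3 (chromosome 14, 36500201 to 36523700), was followed by those over EBF3, SP9, UNCX and EN2 (18400, 15100, 12900 and 11400 bp), which are also developmental transcription factor genes. The joined NKX2-1 locus held 3962 DOX reads and 3461 control reads, or 73.8 and 104 reads per kb after scaling, a ratio of 0.708 (0.676 to 0.741, exact conditional binomial interval). At SP9 there were 2616 and 2322 reads (ratio 0.697), at EBF3 2061 and 1981 (0.644) and at UNCX 1211 and 1224 (0.612). The called domains covered similar lengths in the arms, 31800 bp with DOX and 32200 bp in the control at NKX2-1. At SP9 they covered 15500 and 15100 bp, at EBF3 17400 and 18400 bp and at UNCX 12700 and 12900 bp. A pair of loci 286098 and 297498 bp from NFE2L3 had 2336 and 1727 reads (0.837) and 1859 and 1543 reads (0.745). These 6 loci, the ones with the most reads over IgG, had log2 changes of −0.71 to −0.26, around the median of all loci, and all carried MTF2 and PCGF1.

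Among the 1202 loci with at least 200 reads, whose median was −0.64, the 6 lowest changes included 4 promoters, among them 1 of histone genes. At the promoter shared by the imprinted genes ZIM2 and PEG3 (chromosome 19, 56837901 to 56840300) there were 19 DOX reads and 215 control reads, a log2 change of −4.19. At HNRNPL, an RNA binding protein gene, there were 61 and 465 reads (−3.62), and at FAM174C 53 and 224 (−2.77). The called DOX domains at these 3 covered 400, 1600 and 1700 bp, against 2400, 4100 and 3000 bp in the control. Reads outside called domains are not in the files, so that a shorter call lowers the sum, and the density within the calls was 29.4 against 89.6, 23.6 against 113 and 19.3 against 74.7 scaled reads per kb. The histone gene pair H2AC14 and H2BC14 had 73 and 149 reads (−1.72), a site 10451 bp from PRSS16, in the same histone region of chromosome 6, had 97 and 188 (−1.65), and one 14341 bp from SKOR1 had 82 and 145 (−1.52), where the density within the calls was 50.7 against 58.0 scaled reads per kb. The control IgG density over the ZIM2 and PEG3, HNRNPL and FAM174C loci was 20.4, 29.5 and 9.19 reads per kb, against 5.23 in kept control domains. At the histone pair and the sites near PRSS16 and SKOR1 it lay between 4.39 and 7.6. The part of this background in the changes was not tested. All 6 changes stay below 0 when scaled to reads in domains. All 6 had EP300, and 5 had both DPPA proteins, the exception being the site near PRSS16.

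The 6 highest changes among these loci were at 2 promoters, 1 gene body and 3 sites between genes. A site 54232 bp from NKX2-1 had 237 DOX reads and 68 control reads (log2 change 1.11), one 100638 bp from SNX10 had 190 and 70 (0.75) and the promoter of the collagen gene COL19A1 147 and 56 (0.70). EXOC1L had 175 and 74 reads (0.55), a site within SKOR2 155 and 67 (0.52) and one 4906 bp from OLIG3, a neural transcription factor gene, 154 and 70 (0.44). In all 6 a single DOX domain replaced 2 to 4 control domains, and within the called domains the scaled density was no higher with DOX, for example 20.4 against 23.4 reads per kb near NKX2-1 and 23.8 against 31.8 near OLIG3. Of the 6, 5 had MTF2 and neither DPPA protein, and the exception was the site near NKX2-1.

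**Figure D2:**
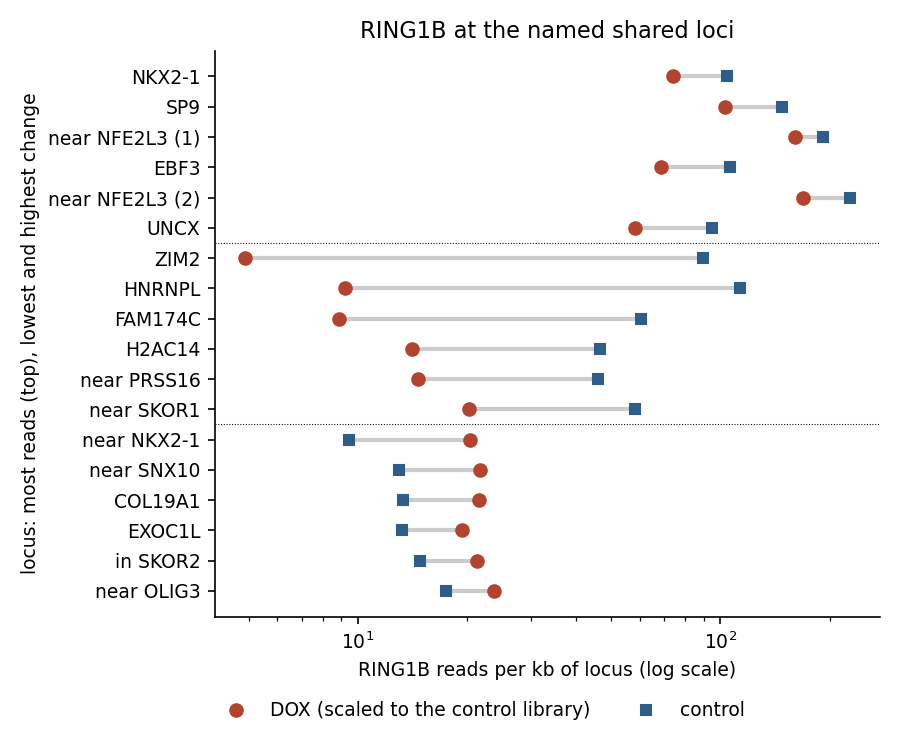
RING1B reads per kb of locus (log axis) with DOX, scaled to the control library (red circles), and in the control (blue squares) for the 6 shared loci with the most reads over IgG, the 6 with the lowest and the 6 with the highest change among loci with at least 200 reads. NKX2-1 stands at 73.8 with DOX and 104 in the control, ZIM2 (with PEG3) at 4.90 and 89.6.

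At promoters, 2733 of the 11977 protein-coding genes with a control domain (22.8%) had no DOX domain, and 457 of the 7993 without a control domain (5.72%) had one with DOX. Of all promoters 9074 touched a shared locus, 9042 of them with domains of both arms, 19 with a control domain only and 13 with a DOX domain only. Of these 9074, 1983 (21.9%) were at least 2-fold lower and 912 (10.1%) were higher per library read, with a median log2 change of −0.66, or 0.04 when scaled to reads in domains. Gene groups are read against these values. Each gene counts by its promoter, and genes that share a promoter share their reads.

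Replication-dependent histone genes, the intronless genes that supply histones in S phase, had the lowest median change of the lists. Of 54 with a control domain 28 had no DOX domain (51.9%, beside 22.8% of all promoters), and none gained one. The median at the 27 promoters with a shared locus was −1.59, 19 were at least 2-fold lower and none was higher, and the median stays below 0, at −0.89, when scaled to reads in domains. The lowest was the locus of H2BC3 and H3C3, with 10 DOX reads and 123 control reads (−4.31), and the highest was H2BC6, with 33 and 38 (−0.90). In total, domains over these promoters held 728 DOX reads and 2987 control reads, a ratio of 0.151 per library read, against 0.553 for all promoters. These totals hold only reads within called domains, 20 with DOX and 42 in the control, with 123 and 638 reads of the shared IgG. Fewer or shorter calls therefore lower the DOX total. Of the 28 genes without a DOX domain, 13 (46.4%) had one under the fold limit, close to the 42.0% of all such promoters. The IgG density in the control domains of these genes was 9.15 reads per kb, against 6.20 for all promoters, and the part of this background in the difference was not tested. Many histone genes are near-identical copies, so that reads may be shared between them.

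The HOX clusters, classical Polycomb targets, kept most of their domains. Of 32 HOX promoters with a control domain 3 had none with DOX (9.38%, beside 22.8%), and the median change was −0.80, or −0.09 when scaled to reads in domains. Over the whole clusters, HOXA had 1879 DOX reads and 2161 control reads (ratio 0.538 per library read, 0.505 to 0.572), HOXB 1256 and 1429 (0.544), HOXD 1490 and 1590 (0.580) and HOXC 626 and 981 (0.395, 0.357 to 0.437). HOXC thus had the lowest ratio, and its domains numbered 15 with DOX and 32 in the control. They covered 16800 bp with DOX and 25800 bp in the control, and reads outside them are not counted. By their point values, all 4 clusters remained below the control when scaled to reads in domains. HOXD did so by the least (log2 change −0.08), and its counting interval by that scaling includes no change. The lowest HOX promoter was HOXB6, with 21 and 80 reads (−2.62), and the highest HOXC9, with 29 and 20 (−0.16).

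The other developmental groups had median changes close to that of all promoters, and fewer of their promoters were without a DOX domain. Of 138 developmental transcription factor promoters with a control domain 16 had none with DOX (11.6%, beside 22.8%), and the median at 121 promoters was −0.65. FOXO4 had 11 DOX reads and 25 control reads (−1.88). NKX2-8 had 15 DOX reads and 34 control reads (−1.87), while FOXJ1, a regulator of motile cilia, had 38 and 13 (0.85) and SOX9 55 and 28 (0.28). Of 29 Wnt ligand and receptor promoters 3 had none with DOX (10.3%), with a median of −0.64, between WNT2B at −1.86 and WNT9B at 0.25. WNT16 had 385 and 211 reads (0.17). For both groups the medians turn to 0.06 and 0.07 when scaled to reads in domains. FOXO3, a forkhead gene of the stress response, had 179 DOX reads and 228 control reads over its gene (ratio 0.486, 0.397 to 0.593, and a log2 change of −0.33 by the other scaling).

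Of the genes of the Polycomb complexes themselves, 4 of 27 PRC1 promoters with a control domain had none with DOX, and the median at 23 promoters was −0.85, or −0.14 when scaled to reads in domains. AUTS2 had 68 DOX reads and 109 control reads (−1.37) and CBX6 53 and 80 (−1.29), while PCGF6 had 16 and 10 (−0.01). PRC2 genes lacked a DOX domain at 3 of 12 promoters and had a median of −0.69 at 9, which turns to 0.02 when scaled to reads in domains. The PRC2 genes EZH2 and SUZ12, its catalytic and scaffold subunits, had 12 and 6 reads (0.31) and 31 and 18 (0.09). Pluripotency genes had a median of −0.82 at 14 promoters, between UTF1 at −1.27 and LIN28B at −0.31, and of −0.11 by the other scaling.

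Housekeeping groups lost their domains at rates near or above the background of 22.8%. Of 58 autophagy and proteasome promoters 14 had none with DOX (24.1%), with a median change of −0.75, or −0.04 when scaled to reads in domains. Ribosomal protein genes lost 25 of 74 (33.8%) and mitochondrial ribosome genes 19 of 66 (28.8%), with medians of −0.61 and −0.69 that turn to 0.09 and 0.02 when scaled to reads in domains. A DOX domain under the fold limit remained at 16 of the 25 ribosomal protein promoters, 11 of the 19 mitochondrial ribosome promoters and 3 of the 14 autophagy and proteasome promoters without a called one, beside 1149 of 2733 (42.0%) over all promoters. PSMD11, a proteasome subunit gene, had 16 DOX reads and 32 control reads (−1.69), and RPL3 32 and 56 (−1.50). Gene families that are silent in most tissues had few domains. Over all 19970 promoters, 9701 had a DOX domain and 11977 a control domain. Of 415 olfactory receptor promoters 3 had a DOX domain and 7 a control domain, with none in both arms, and of 94 keratin-associated protein promoters 1 and 0. Of 53 clustered protocadherin promoters 3 had a DOX domain and 6 a control domain, so that 3 of the 6 had none with DOX, with a median change of −0.61 at the others, or 0.09 when scaled to reads in domains.

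MACS2 narrow peaks, called on the same libraries with a fold over IgG above 2, gave a larger difference in number. There were 10496 DOX peaks and 34551 control peaks, of which 7.39% were gained and 75.8% (75.4 to 76.3%) were lost. At promoters 59.1% of control peaks were lost, against 85.4% elsewhere, and 55.3% were lost with both DPPA proteins, against 86.2% with neither. Of the DOX peaks 94.7% touched a DOX domain, whereas 56.7% of control peaks touched a control domain and 50.3% a DOX domain. Of the gained domains 6.85% and of the lost domains 44.7% held a peak of their own arm.

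The shDPPA4 line, in which the hairpin against DPPA4 alone was induced, had a RING1B pair of its own. The shDPPA2+4 line had fewer domains with DOX (27192 against 31502), and the shDPPA4 line had more (61213 with DOX against 42613 in its control). The share of DOX domains gained was 37.9% in the shDPPA2+4 line, against 49.8% with the DPPA4 hairpin alone, and the share of control domains lost was 43.0% against 20.2%. The median change per library read was −0.56 at the 16001 shared loci of the shDPPA2+4 line, against 0.11 at the 29402 of the other, and both signs turn when scaled to reads in domains, to 0.15 against −0.21. The median with both DPPA proteins minus that with neither was −0.50 in the shDPPA2+4 line, beside −0.40 in the line with the DPPA4 hairpin alone. With both proteins 28.8% of control domains were lost in the shDPPA2+4 line, against 5.11% in the shDPPA4 line, and with neither 52.6% against 28.2%. Histone promoters without a DOX domain numbered 28 of 54 in the shDPPA2+4 line (51.9%, beside 22.8% of all promoters). In the shDPPA4 line they numbered 7 of 56 (12.5%, beside 3.93% of all promoters). The median change of histone promoters there was −0.50 and that of all promoters −0.07. Other lists had the opposite sign in the shDPPA4 line per library read. Medians there were 0.17 for HOX, 0.32 for developmental transcription factor, 0.43 for Wnt and 0.18 for pluripotency promoters. In the shDPPA2+4 line these lists had −0.80, −0.65, −0.64 and −0.82. The PRC1, PRC2 and housekeeping lists of the shDPPA4 line lay between −0.23 and −0.02. The difference between the lines was not tested, since each arm of each line is 1 library.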

How the data were processed

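RING1B CUT&RUN libraries of the shDPPA2+4 line were compared between DOX and water. The authors trimmed reads with Trim Galore 0.6.6, aligned them with BWA 0.7.13 to hg38, marked duplicates with Picard 2.6.0, and called regions with MACS2 and EPIC2 against IgG. How EPIC2 was set for these libraries is not given in the sources used here. The deposited EPIC2 tables hold read counts and IgG counts per domain, a log2 fold change and a false discovery rate (an adjusted p-value). The deposited MACS2 lists hold a fold ratio over IgG and −log10 q-values. The authors' comparisons were not used. Depth in reads is not in the files, so the relative library size was solved from each table's log2 fold change, counts and shared IgG.

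Domains were kept as the report states, and MACS2 lines of 1 region were merged. No blacklist was applied. No region ran past a chromosome end of hg38. Promoters and gene types came from GENCODE 44, with the canonical transcript's start site for each of 19970 protein-coding genes. DPPA classes came from MACS2 peaks of DPPA2 and of DPPA4 (N-terminal antibody) in parental H661. A domain touched another by at least 1 base. Loci joined all domains that matched. Shares have 95% Wilson intervals and medians order-statistic intervals. Scripts ran in Python 3.11.15 with pandas 2.3.3 and scipy 1.17.1 and were tested on simulated data.

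Named regions were the first 8 lost and 8 gained domains and 6 shared loci by reads above scaled IgG, the 6 lowest and 6 highest changes among loci with at least 200 reads, and the 5 longest control domains. Of each gene list, up to 2 genes at each end were eligible, with the HOX clusters and FOXO3 added. The result at 1 of the 8 lost domains is not reported here. The comparison, regions and lists were chosen with earlier results of these data known. Alternatives were other fold limits, overlaps, read minimums, scalings, callers, DPPA classes and promoter widths.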

Additional observations from a re-analysis of the deposited data

Results flagged for a closer look

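In 2 results, the shDPPA2+4 line and the shDPPA4 line had opposite signs with DOX. The log2 ratio of RING1B domain number, DOX over control, was −0.21 in the shDPPA2+4 line and 0.52 in the shDPPA4 line. The median log2 change at shared loci was −0.56 in the shDPPA2+4 line and 0.11 in the shDPPA4 line per library read. Scaled to reads in domains both signs turn, to 0.15 in the shDPPA2+4 line and −0.21 in the shDPPA4 line. The DOX library was 1.62 times its control in the shDPPA2+4 line and 1.28 times in the shDPPA4 line. The difference between the lines was not tested.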

How the results depend on the processing

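No result has a replicate check, and results moved where an alternative gave a value outside the interval of counting error, which is narrow over this many domains. Calls near the fold limit and reads outside called domains, which are not in the files, limit these values. No paired analysis was possible because each arm held 1 library.

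The log2 ratio of domain number was −0.10 without a fold limit, −0.53 with a log2 fold limit of 2, −1.72 with MACS2 peaks and −0.021 with at least 20 reads per domain. The percent of control domains lost was 37.1% without a fold limit, 59.5% with a limit of 2, 75.8% with MACS2, 42.3% with any shared base, 45.4% with 50% overlap, 36.2% with no fold limit in the other arm, 27.0% with at least 20 reads and, chosen after seeing the data, 31.8% among domains also called in the shDPPA4 control. The percent gained was 36.6%, 46.0% and 7.39% for the first 3 of these, 37.3% with any shared base, 40.3% with 50% overlap and 26.9% with at least 20 reads. The median length change turned to −0.99 with MACS2 peaks. The median change at shared loci was −0.57 without a fold limit, −0.49 with a limit of 2, −0.51 with MACS2 fold, −0.67 with at least 20 reads and −0.67 for near-identical domains, and it turned to 0.15 when scaled to reads in domains and to 0.14 with no scaling (chosen after seeing the data).

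The DPPA2/4 difference of medians kept its sign throughout, at −0.20 with MACS2 fold, −0.30 with at least 20 reads, −0.22 for near-identical domains, −0.61 by DPPA4 domains of the same line and −0.43 as a mean within 10 equal classes of density (chosen after seeing the data). The promoter minus distal difference in percent lost also kept its sign, at −25.8 without a fold limit, −11.6 with a limit of 2, −26.3 with MACS2, −26.0 with a promoter of 500 bp, −13.7 within 5 equal classes of length and −13.2 among domains also called in the shDPPA4 control (chosen after seeing the data).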

Other observations

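Gains and losses differed between chromosomes. The share of DOX domains gained was highest on chromosomes 21 (53.9%) and 5 (53.5%) and lowest on chromosomes 17 (22.3%) and 9 (23.1%). The share of control domains lost ranged less, from 37.3% on chromosome 11 to 49.9% on chromosome 21. The median change at shared loci was −0.43 on chromosome 5 and −0.69 on chromosomes 9 and 16. Domains with both DPPA proteins made up 46.9% of the DOX domains of chromosome 17 and 39.0% of chromosome 9, and 17.8% of chromosome 5 and 20.2% of chromosome 21. On chromosome X, where 25.9% of DOX domains were gained, they made up 26.1%.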
